A study of Sus scrofa with 10 samples.

Results

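The genes described here encode the proteins of the cytosolic ribosome. They were chosen by symbol: every gene of the count files whose symbol is RPL or RPS followed by a digit, plus RPLP0, RPLP1, RPLP2 and RPSA, leaving out the RPS6K kinases and symbols with a further L-number suffix. The rule found 52 of 22452 genes. Of these, 47 carry the symbol of a core subunit protein (24 of the large subunit and 23 of the small subunit). The other 5 are RPL10L, RPL3L and RPL36AL, which are paralogs of core proteins, RPS19BP1, which encodes a binding protein of RPS19, and RPL17-C18orf32, a readthrough symbol. The list used for the core holds 79 symbols, and 32 of them were not analysed here because no gene of the files carries that symbol.

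The data are droplet-based single-cell counts from the pig (Sus scrofa) medial entorhinal cortex, the part of the temporal cortex that connects the neocortex with the hippocampus. Crossbred fetuses were sampled at embryonic days 50, 60 and 70 (E50, E60 and E70), and sows as the Adult stage. Papain freed whole cells from fresh tissue for 8 libraries, of which E50 and the Adult stage gave 1 each and E60 and E70 gave 3 each. Nuclei were sorted from snap-frozen tissue in 1 library at E70 and 1 from the Adult stage (E70_nc and Adult_nc). No group received a treatment or carried an engineered allele, a library held tissue of 1 to 3 pooled brains, and the library was taken as the replicate. The files hold 28229 cells or nuclei.

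A ribosome has a large and a small subunit, each made of ribosomal RNA and of proteins that are mostly encoded by single expressed genes. The mRNAs of these proteins are among the most abundant of growing cells. In vertebrates most of them open with a C followed by a run of pyrimidines, the 5′ terminal oligopyrimidine (TOP) motif, through which their translation is regulated together. In the brain, ribosomal protein mRNAs are abundant in progenitors and glia and are also carried into the processes of neurons. Nuclei hold newly made and partly spliced transcripts, and the mature mRNA lies mainly in the cytoplasm.

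The start sites of the members were read from the RefSeq annotation of Sscrofa11.1, the build the counts were made on, which matched 51 of the 52. A C at the annotated start followed by at least 4 pyrimidines, read on the strand of the gene, stood at 9 of these 51 (17.6%) and at 608 of 19535 protein-coding genes (3.11%). A C alone stood at 23 members (45.1%) and at 25.8% of protein-coding genes. On the list of translation factors used below, the run stood at 4 of 23 (17.4%) and a C alone at 12 (52.2%). Among annotated mitochondrial ribosomal proteins, the run stood at 3 of 74 (4.05%) and a C alone at 17 (23.0%). The run was thus about as frequent on the list of translation factors as in the members. Annotated starts can be off by some bases, so a missing run says only that these letters were not at the annotated start. Windows of 30 bases are shown for the 7 members with such a run and with a mean above 100 CPM (UMIs of the gene per 1000000 UMIs) in whole cells, and for RPL7A, which had the smallest proportion of its whole cell level in E70 nuclei among the core members above 100 CPM. The capitals mark the pyrimidines from the start site, which is base 11, and each line is 5′ to 3′.
RPL6, chr14:39302437-39302466, plus strand: ggccttagttCTCTTTCCCatcttgcaagg
RPL7, chr4:62602420-62602449, plus strand: gcgctaacttCCTCTTTCCCggctggaacc
RPL23, chr12:23279955-23279984, plus strand: ttcttacttcCTTTTCgtccttgtcgggcc
RPS3A, chr8:77893721-77893750, minus strand: atacttccgcCCTTTTggctctctgtgcag
RPS26, chr5:21431646-21431675, plus strand: tggccacttcCTCTCTCgcgtcttcgcttc
RPLP0, chr14:40223924-40223953, minus strand: tacagccctcCTCTCgccaggcgtcctcgt
RPS20, chr4:75762199-75762228, plus strand: tcacgccttcCTCTTTgaagaagacgcagc
RPL7A, chr1:272961411-272961440, plus strand: ggtaaatcacCTgagaaggacgccgacccg
RPL7A also started with a C, but with a shorter run. The members were also short genes, with a median length of 3887 bp and a median of 6 exons, where all protein-coding genes had a median length of 20655 bp.

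The libraries held between 2336865 and 55755512 UMIs (unique molecular identifiers, each counting 1 captured transcript end) in 493 to 8171 cells. No library repeated another: 449 cell barcodes occurred in more than 1 library, at most 1.83% of the smaller library of a pair. CPM below are over the cells that were neither erythroid-like nor vascular-like. A 3′ UMI counts an mRNA once whatever its length, so CPM was not divided by length. E70_1 and E70_2 stood apart from the other fetal libraries: 115 genes were at 10 CPM or more in both and at least 10 times higher than in each of the other 5 fetal whole cell libraries, whereas every other pair of fetal whole cell libraries had at most 2 such genes. These genes took 2.30% and 2.73% of the UMIs of E70_1 and E70_2, 0.531% in Adult_1 and 0.0649% to 0.143% in the other whole cell libraries. E70_1, E70_2 and Adult_1 were also the whole cell libraries with the fewest cells (493, 617 and 737). E60_1 and E60_2 had fewer than 20 excitatory-like cells each, against 1202 in E60_3. The main results that rest on these libraries are also given without them.

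In fetal whole cells, the members were a large part of the transcripts counted. They took 6.94% of the UMIs in E50_1. The 3 E60 libraries were at 5.95%, 7.32% and 7.07%. The E70 whole cell libraries were at 4.0%, 5.12% and 7.28%, so that E70_3 was as high as E60 and the pair that stood apart was lower. Adult whole cells were lower than every fetal whole cell library, at 2.92%, with 1 library and no test. Nuclei had the lowest proportions, 1.49% at E70 and 0.326% in the Adult library. The large and the small subunit took nearly equal parts, with a ratio of large to small between 0.979 and 1.08 in the 8 whole cell libraries and of 1.08 in Adult nuclei, but of 2.77 in E70 nuclei. Counting also 13 gene IDs that have no symbol in the files but are named as ribosomal protein genes in a table of gene names raised the proportions to between 5.05% and 9.06% in fetal whole cells.

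**Figure D1:**
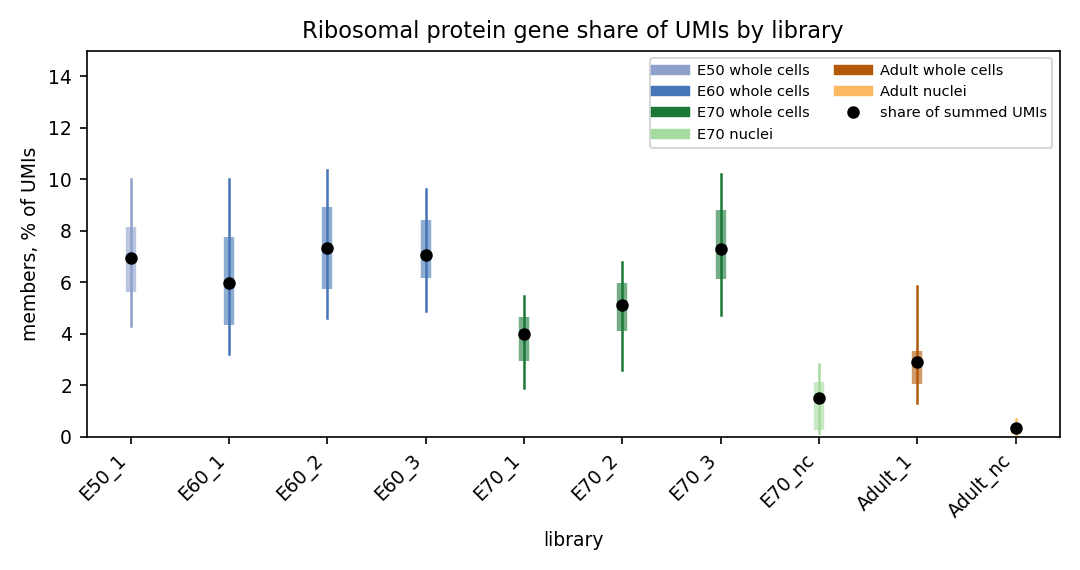
Share of UMIs (%) from the 52 members in each library. Black points are the summed share, thick bars the middle 50% of cells and thin lines the 10th to 90th percentile of cells, coloured by group. The fetal whole cell libraries lay between 4.0% and 7.32%, and the nuclei libraries at 1.49% and 0.326%.

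The first comparison asked whether the proportion of ribosomal protein transcripts changed between E60 and E70, the stages with replicate libraries. E60 libraries had a mean of 6.78% ± 0.727 (SD, n = 3). The mean of the E70 libraries was 5.46% ± 1.67 (SD, n = 3). The difference of −1.32 points was not larger than the spread of the libraries (exact permutation test, two-sided, p = 0.30), and 3 against 3 libraries cannot give a p below 0.10. The direction rested on E70_1 and E70_2, since E70_3 alone was 0.495 points above the E60 mean. Within the sequencing pools that held both stages, E70_1 was 1.96 points below E60_1, and E70_3 was 0.203 points above E60_3.

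Across genes, no member and no other gene passed the test between these stages. edgeR's quasi-likelihood test called 0 of 17217 genes at an adjusted p under 0.05 (0%), with 4836 at an unadjusted p under 0.05, and DESeq2 called 2535. Without E60_3, edgeR called 5552 genes, 5 of them members (RPL10A, RPL10L and RPS21 higher at E70, RPS9 and RPS19BP1 lower). Without E70_3 it called 1357, with RPL10A higher and RPL36AL lower. Of the 47 members that passed the filter on low counts, 4 had an unadjusted p under 0.05 and 38 had a negative log2 fold change. Their median log2 fold change was −0.45, beside −0.02 over all genes tested, and it was −0.03 without E70_1 and E70_2. The lowest values were those of RPS19BP1 (log2 fold change −1.12 ± 0.376 SE) and RPS9 (−1.02 ± 0.404). RPS7, RPL8 and RPS15 followed, at −0.92, −0.85 and −0.84. All of these had an adjusted p of at least 0.14 in edgeR.

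RPL10A, a large subunit protein of the L1 stalk, differed most between libraries. It was at 11.7 CPM in E50_1 and at 5.25, 8.24 and 19.9 CPM in the E60 libraries. The E70 whole cell libraries had 270, 358 and 13.4 CPM, and Adult_1 had 46.0 CPM. Only the pair that stood apart was high, and RPL10A was the 1 member among the 115 genes that marked it. Its log2 fold change between E70 and E60 was 4.15 ± 1.07 SE (edgeR adjusted p = 0.14). RPL10L, a retrogene of RPL10 and not of RPL10A, was also highest in E70_1 and E70_2, at a far lower level, from 1.62 CPM in E60_1 to 12.7 and 19.7 CPM in E70_1 and E70_2 (log2 fold change 1.86 ± 0.653 SE, edgeR adjusted p = 0.14). DESeq2 called both genes. RPS21 (log2 fold change 0.95), RPL38 (0.48) and RPS23 (0.35) were the next highest, with edgeR adjusted p values of 0.21, 0.44 and 0.68. The value of RPS23 was −0.02 without E70_3 and −0.50 without E60_1 and E60_2.

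Several further members differed between fetal libraries of the same stage. RPS23, a small subunit protein of the decoding centre, was at 394, 321 and 443 CPM in E50_1, E60_1 and E60_2. It was at 1370 CPM in E60_3 and at 739, 764 and 1373 CPM in the E70 whole cell libraries. RPS13, also of the small subunit, was at 757, 542 and 752 CPM in the first 3 and at 1830 CPM in E60_3. Its E70 whole cell libraries were at 806, 1009 and 1784 CPM, so that E70_1 and E70_2 lay nearer to the low libraries. RPL30 of the large subunit was at 1117 CPM in E60_3 and 1171 CPM in E70_3, and at 441 and 553 CPM in E70_1 and E70_2, where E50_1 had 636 CPM. RPL38 was lowest in E60_1, at 357 CPM, and highest in E70_3, at 1174 CPM. E60_3 and E70_3, which were sequenced together, were alike in RPS23, RPS13 and RPL30. In RPL38, E60_3 was at 1015 CPM, nearer to E70_1 and E70_2 (947 and 1064 CPM) than to E70_3. Over the 48 members with a UMI, the rank correlation of levels between E60_3 and E70_3 was 0.99, while that between E60_1 and E70_1, also sequenced together, was 0.81. The same correlation was 0.99 between E70_1 and E70_2, 0.97 between E60_1 and E60_2 and 0.82 between E60_1 and E60_3. In most members the spread was smaller: over the 42 with a mean above 100 CPM in whole cells, the highest fetal whole cell library exceeded the lowest by a median of 2.24-fold (range 1.67 to 4.28).

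**Figure D2:**
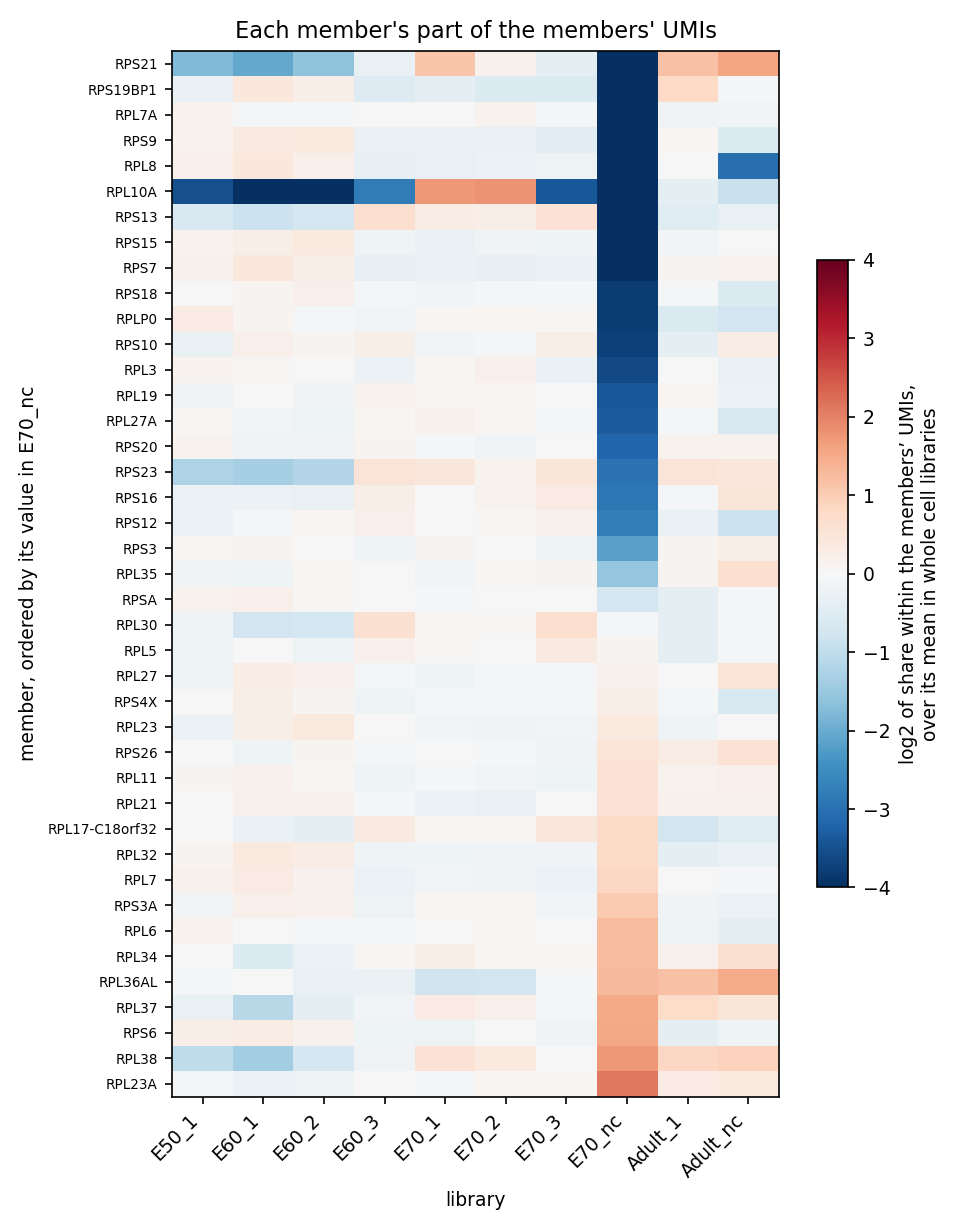
Each member's part of the members' UMIs by library, on a log2 scale relative to its mean over the 8 whole cell libraries, for 41 members above 40 CPM there (colours stop at −4 and 4). RPL10A is low in the fetal whole cell libraries other than E70_1 and E70_2, and the E70_nc column divides the members into those far below and those above their whole cell part.

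The most abundant members by mean CPM over the 10 libraries were RPS20, RPL32, RPS15, RPLP0 and RPL34. RPS20 had the highest mean. It ranged from 1800 to 3652 CPM in fetal whole cells, with 1535 CPM in Adult_1. RPLP0, the stalk protein that recruits translation factors, ranged from 1568 to 3319 CPM in fetal whole cells and was at 753 CPM in Adult_1. At the other end, 5 core members could not be assessed or nearly so. RPL10, RPL22, RPLP2 and RPS28 had no UMI in any of these cells, and RPS14 had 19 UMIs in all, at most 0.640 CPM. They are the 5 members that did not pass the filter on low counts.

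The second comparison set nuclei against whole cells. Of the 47 members that passed the filter, 35 were called lower in nuclei and 0 higher in the fit over both stages. All 47 had a negative log2 fold change, of which that of RPL3L turned positive when counts were scaled by library size only (0.02). Over all genes, 22.6% of 17217 were called, 5.86% higher and 16.8% lower. The median log2 fold change of the members was −3.82, beside −0.24 over all genes. In summed proportions, E70 nuclei were at 1.49% where E70 whole cells were at 4.0%, 5.12% and 7.28%, and Adult nuclei were at 0.326% where Adult whole cells were at 2.92%. The mean difference over the stages was −3.28 points. An exact permutation test within stages gave p = 0.125, the smallest that its 8 arrangements allow. Mitochondrially encoded transcripts, which lie outside the nucleus, took 0.0502% and 0.0882% of the UMIs of nuclei and 0.821% to 3.48% in whole cells. Both fractions were present at E70 and in the Adult stage, but freezing and sorting were done for nuclei only and cannot be told apart from the fraction.

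RPL8 was among the lowest members in nuclei. This large subunit protein near the peptidyl transferase centre had 658, 870 and 1259 CPM in E70 whole cells and 8.53 CPM in E70 nuclei, and it fell from 595 to 8.02 CPM in the Adult libraries. Its log2 fold change was −6.76 ± 0.663 SE (edgeR adjusted p = 0.0013). RPL10A (−5.94) and RPS9 (−5.64) were also called lower. RPL10A had only 3 UMIs in E70 nuclei and 8 in Adult nuclei. Its E70 whole cell level came from E70_1 and E70_2 (270 and 358 CPM). E70_3 had 13.4 CPM, beside 0.984 CPM in E70 nuclei. RPL10L had no UMI in either nuclei library, so no fold change is given for it.

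The members that were not called had E70 nuclei at 50.8% to 114% of the mean of E70 whole cells. They were 12, of which 4 lay inside the range of the E70 whole cell libraries and 8 below it. Among them were RPL23A, RPS6, RPL38, RPL34, RPL37, RPL6, RPS3A, RPL7 and RPL32, and the paralogs RPL36AL and RPL3L. RPL23A, a large subunit protein at the exit of the nascent chain, was at 1126, 1565 and 2245 CPM in E70 whole cells and at 1884 CPM in E70 nuclei, inside the range of the whole cells. In the Adult libraries it was at 1065 CPM in whole cells and 123 CPM in nuclei. Its log2 fold change over both stages was −1.09 ± 0.730 SE (edgeR adjusted p = 0.32). RPS6, the small subunit protein phosphorylated by S6 kinases, was at 662, 960 and 1261 CPM in E70 whole cells and at 826 CPM in E70 nuclei. RPL3L, the striated muscle paralog of RPL3, was at 1.6 to 6.68 CPM in all 10 libraries. Without E70_nc the same fit called 2 members and 191 genes, so the number of calls rested on that library.

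The members lay farther apart in E70 nuclei than in Adult nuclei, relative to whole cells. The nuclei libraries held different cells, which cannot be told apart from the stage. Of the 842 E70 nuclei that CPM is based on, 500 were excitatory-like and 179 interneuron-like. Of the 2432 Adult nuclei, 1925 were oligodendroglia-like, beside 197 of 574 Adult whole cells. The median nucleus had 2616 UMIs in E70_nc and 690 in Adult_nc. Of the 40 core members above 100 CPM in whole cells, 18 were in E70 nuclei below 5% of their mean in E70 whole cells, 13 were above 40%, and 9 lay between. Against E70_3 alone, which leaves out E70_1 and E70_2, 19 were below 5%, 9 above 40% and 12 between. In Adult nuclei the same 40 members ran from 1.35% to 18.3% of Adult_1, with a median of 11.5%. There, 2 were below 5%, RPL8 the lowest, and 0 were above 40%. RPL7A, a large subunit protein, was the lowest at E70: it had 924, 1327 and 1665 CPM in whole cells and 8.86 CPM in nuclei, 0.679% of the mean. In the Adult libraries it was at 618 CPM in whole cells and 71.3 CPM in nuclei, 11.5%. RPS15 was at 1.56% at E70 and at 12.2% in the Adult libraries. RPL34 was at 60.3% and 15.2%, RPL6 at 63.3% and 10.0%, and RPL37 at 71.4% and 9.28%. The group above 40% held 9 large and 4 small subunit members, and the group below 5% held 6 large and 12 small.

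**Figure D3:**
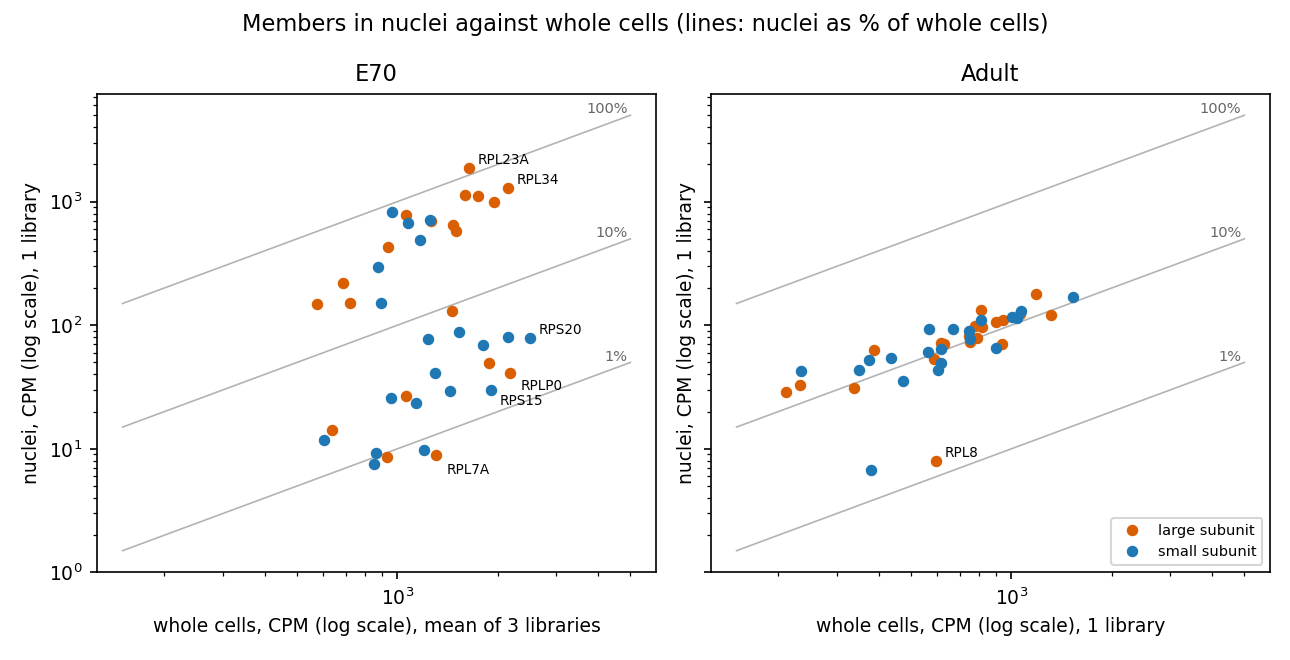
CPM in nuclei against CPM in whole cells for the 40 core members above 100 CPM in whole cells, both on log scales, at E70 (mean of 3 whole cell libraries) and in the Adult libraries. Grey lines mark nuclei at 100%, 10% and 1% of whole cells. The E70 points spread from 0.679% to 114%, and the Adult points lie between 1.35% and 18.3%, with RPL8 lowest as a proportion.

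The difference of the nuclei effect between the stages was then fitted directly, a test chosen after seeing the data. edgeR called 0 of 17217 genes (0%), with 757 at an unadjusted p under 0.05 (4.4%). Each nuclei group is 1 library, assumed to vary like the replicated groups, and the nuclei libraries differ in their cell mix as given above. Among the 47 members, 22 had an unadjusted p under 0.05, 11 in each direction. The median of the members was −0.69, beside −0.30 over all genes, and −0.38 beside −0.13 without E70_1 and E70_2. RPL23A had the highest value (log2 difference 3.34 ± 0.901 SE, edgeR adjusted p over 0.99), followed by RPL37 (2.98), RPS6 (2.82), RPL36AL (2.72) and RPL6 (2.69). RPL7A was at −4.05 ± 0.916 (edgeR adjusted p over 0.99), RPL10A at −4.01 and RPS13 at −3.90. The value of RPL10A rests on 3 and 8 UMIs in E70 and Adult nuclei and on its high level in E70_1 and E70_2. RPS21 and RPS19BP1 had no UMI in E70 nuclei and 21 and 6 UMIs in Adult nuclei. DESeq2 called 59 genes, and 7 of them were members: RPL23A, RPL37, RPS6 and RPL6 were higher at E70, and RPL7A, RPS13 and RPS10 were lower.

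The order of the members was similar in the classes of E70 nuclei. RPL23A was at 2077 CPM in excitatory-like and 1991 CPM in interneuron-like nuclei, and RPL7A was at 9.16 and 11.0 CPM there. Astrocyte and radial glia-like nuclei had 187 CPM of RPL23A and no UMI of RPL7A. RPL34, RPL6 and RPL37 were at 177, 135 and 65.4 CPM in these nuclei. E70 whole cells of the class had means of 1581 CPM of RPL23A and 1838, 1731 and 1546 CPM of RPL34, RPL6 and RPL37. In excitatory-like nuclei the latter were at 1403, 1277 and 1263 CPM, beside 2438, 1895 and 1685 CPM in whole cells. Astrocyte and radial glia-like nuclei were thus far below whole cells of their class in these members. Over the 44 members with a UMI in E70 nuclei, the rank correlation between excitatory-like and interneuron-like nuclei was 0.99, and between excitatory-like and astrocyte and radial glia-like nuclei 0.91; these classes share 1 library. The summed share differed more than the order. It was 1.66% in 500 excitatory-like nuclei (exact Poisson 95% interval 1.64 to 1.67), 1.47% in 179 interneuron-like nuclei (1.44 to 1.51), 0.653% in 24 oligodendroglia-like nuclei (0.575 to 0.739) and 0.198% in 117 astrocyte and radial glia-like nuclei (0.180 to 0.218). These intervals cover counting error only, and 1 library allows no test between classes. Among the excitatory-like nuclei, 1 cluster of 121 nuclei with a median of 1361 UMIs was at 0.352%, where the largest cluster, of 266 nuclei with a median of 5998 UMIs, was at 1.70%. In Adult nuclei the classes lay closer together, from 0.205% in vascular-like to 0.391% in interneuron-like nuclei.

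Features of the genes were set beside these proportions. In E70 nuclei, the proportion of the whole cell level fell with the GC content of the gene (Spearman's rho −0.53 across the 40 members, which share libraries and are not independent). The members above 40% had a GC content of 40.8% to 52.0% (median 45.7%), and those below 5% had 41.9% to 62.1% (median 50.4%), so the groups overlapped. In Adult nuclei the same correlation was −0.19. Transcript length gave −0.27 at E70 and −0.35 in Adult nuclei. Gene length gave 0.01 at E70 and the summed length of introns 0.08. Of the 7 members with a TOP run shown above, 5 were above the median proportion in E70 nuclei (RPL6, RPL7, RPL23, RPS3A and RPS26) and 2 below it (RPLP0 and RPS20). Of the 33 others, 15 were above it.

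The third comparison was between cell classes, named from marker genes after clustering without the members. The 8 classes held 1284 cells (IP-like, intermediate progenitors) to 5677 cells (astrocyte and radial glia-like), and 2552 cells in 9 clusters stayed unnamed. In whole cells, microglia-like cells, the resident macrophages of the brain, had the highest median share over libraries, 7.95% (range 3.04% to 8.68% in 7 libraries). These medians are over different libraries, 5 to 8 for a class, and give no order within a library. IP-like cells were at a median of 7.39%, excitatory-like cells at 6.81%, oligodendroglia-like cells at 6.38%, astrocyte and radial glia-like cells at 6.32%, vascular-like cells at 5.89% and interneuron-like cells at 5.67%. Erythroid-like cells, the red blood cell lineage, were at 0.722% (range 0.334% to 2.02%). Shares are over all UMIs, which include the globin transcripts that were among the markers of this class. Without E70_1 and E70_2, the medians were 7.97% in microglia-like, 7.69% in IP-like, 7.39% in excitatory-like, 6.96% in astrocyte and radial glia-like and 6.79% in interneuron-like cells. E70_1, E70_2 and Adult_1 were low in almost every class, Adult_1 with 2.40% to 3.04% in its glial classes and 5.44% in vascular-like cells.

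**Figure D4:**
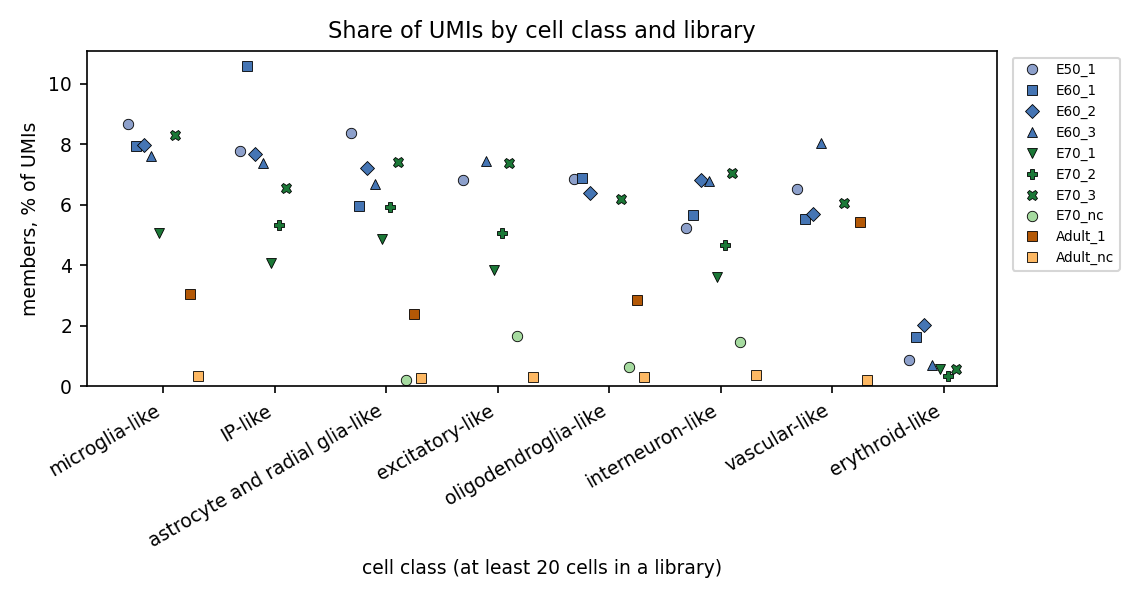
Share of UMIs (%) from the members by cell class, 1 point for each library with at least 20 cells of the class, coloured by group. Erythroid-like cells of whole cell libraries lie between 0.334% and 2.02%, and the nuclei libraries lie at 1.66% or lower in every class shown.

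Within libraries, 22 pairs of classes could be compared with an exact sign-flip permutation test, and 0 had an adjusted p under 0.05, with 8 at an unadjusted p under 0.05. The smallest adjusted p was 0.0859. The smallest p possible was 0.0156 with 7 libraries, 0.0313 with 6 and 0.0625 with 5. Over 22 pairs, 1 pair by itself could therefore not reach an adjusted p under 0.05, and the count of 0 says little. In 10 pairs the difference had the same direction in every library. Microglia-like cells were higher than astrocyte and radial glia-like cells in 7 of 7 libraries, by 0.816 points ± 0.594 (SD; exact permutation p = 0.0156, the smallest that 7 libraries allow, adjusted p = 0.0859). They were higher than interneuron-like cells in 6 of 6 libraries, by 1.74 points ± 0.965 (exact permutation p = 0.0313, adjusted p = 0.0982). Interneuron-like cells were below astrocyte and radial glia-like cells in 6 of 7 libraries, with a mean difference of −0.948 points ± 1.09 (SD; exact permutation p = 0.0313, adjusted p = 0.0982). Excitatory-like cells were above interneuron-like cells in 5 of 5 libraries, by 0.645 points ± 0.544 (exact permutation p = 0.0625, the smallest for 5 libraries). The difference between excitatory-like and astrocyte and radial glia-like cells was −0.542 points ± 0.916, with excitatory-like cells higher in 1 of 5 libraries (exact permutation p = 0.188, adjusted p = 0.295). Oligodendroglia-like minus astrocyte and radial glia-like cells gave −0.437 points ± 1.08, higher in 2 of 5 (exact permutation p = 0.438, adjusted p = 0.602). Erythroid-like cells were below each class they could be compared with in every library, with mean differences between −6.54 and −4.73 points. These differences are over all UMIs, globin included, and values without globin are not given here.

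Between E60 and E70, 4 classes had at least 20 cells in all 6 libraries. IP-like cells, the neuron-producing progenitors, were at 10.6%, 7.69% and 7.39% at E60 and at 4.09%, 5.35% and 6.55% at E70. These values did not overlap, and the difference was −3.22 points (exact permutation p = 0.10, the smallest possible, adjusted p = 0.20). Of libraries sequenced together, E60_1 and E70_1 were at 10.6% and 4.09%, but E60_3 and E70_3 lay closer, at 7.39% and 6.55%. IP-like cells numbered only 29 in E60_2, 26 in E70_1 and 20 in E70_2. Erythroid-like cells did not overlap either, at 1.62%, 2.02% and 0.722% at E60 and 0.570%, 0.334% and 0.568% at E70. Their difference was −0.966 points, over all UMIs with globin included (exact permutation p = 0.10, adjusted p = 0.20). Interneuron-like cells differed by −1.31 points, with overlapping values (exact permutation p = 0.40), and astrocyte and radial glia-like cells by −0.554 points (exact permutation p = 0.60). The last difference was 0.0433 points without E70_1.

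Across genes, 10 members were called higher in microglia-like than in astrocyte and radial glia-like cells and 0 lower, of 47 tested. Over all genes, 46.1% of 15309 were called, 22.3% higher and 23.9% lower, so the number of members called higher was close to that of all genes. The median log2 fold change was 0.27 for the members and −0.06 for all genes. RPL36AL, a paralog of RPL36A, had the largest difference. In 7 libraries it was at 158 to 512 CPM in microglia-like cells (median 304) and at 73.9 to 187 CPM in astrocyte and radial glia-like cells (median 138), higher in 7 of 7 (log2 fold change 1.38 ± 0.200 SE, edgeR adjusted p = 1.5e-07). RPS19BP1 followed at 0.98 ± 0.180 (edgeR adjusted p = 1.2e-05) and RPL10L at 0.87, on 1.14 to 12.3 CPM. These 3 are not core subunit symbols. The core members called included RPL37, RPS26, RPS20, RPS23, RPS16 and RPL27A, at 0.57 to 0.83, and each was higher in 7 of 7 libraries. RPS20 was at 1852 to 5069 CPM in microglia-like cells (median 4093) and at 1337 to 3640 CPM in astrocyte and radial glia-like cells (median 2803). The lowest values were those of RPL30 (−0.24), RPL27 (−0.18), RPL32 (−0.13), RPS10 (−0.13) and RPL7 (−0.09), none of them called. RPL7 was at 0.05 without E70_1 and E70_2. With library size scaling only, 6 members were called higher and the medians were 0.08 for the members and −0.24 for all genes. Of all 15309 genes, 2486 were called higher there. Leaving out 1 library changed the number called higher to between 5 (without E50_1 or E60_1) and 14 (without E70_2). It was 6 without E60_2 and 17 without E70_1 and E70_2 together. Over all genes, 2793 of 15112 were called higher without E50_1, 2809 of 15068 without E60_1 and 3441 of 15306 without E70_2. The figure was 3520 of 14863 without E70_1 and E70_2 together.

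**Figure D5:**
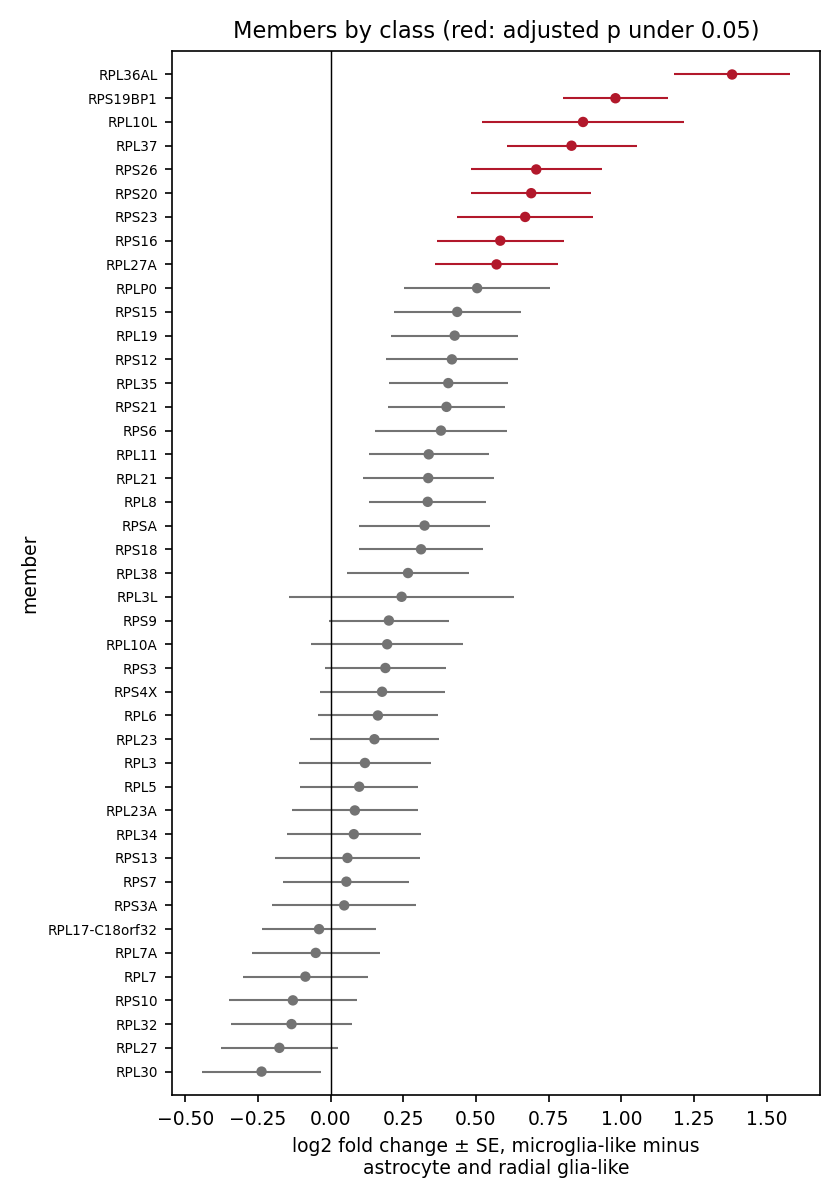
Log2 fold change ± SE (edgeR) of 43 of the 47 members tested, microglia-like minus astrocyte and radial glia-like cells, with members at an adjusted p under 0.05 in red. The 9 red members lie between 0.57 and 1.38, and 36 of the 43 are above 0.

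No member was called between excitatory-like and astrocyte and radial glia-like cells, where 28.8% of genes were called (13.6% higher and 15.2% lower), or between excitatory-like and IP-like cells, where 16% were (8.28% higher and 7.77% lower). At an unadjusted p under 0.05, edgeR had 3 and 2 members (6.38% and 4.26% of 47), beside 38.0% and 27.6% of all genes. DESeq2 called 5 and 3 members, and 4953 and 2809 of 15309 genes. RPL34 had the highest value in both contrasts, 0.52 ± 0.252 SE (edgeR adjusted p = 0.12) and 0.53 ± 0.261 SE (edgeR adjusted p = 0.18). Against astrocyte and radial glia-like cells, RPL10L (0.50), RPL17-C18orf32 (0.48) and RPL27A (0.31) were also high, and RPL3L (−0.55), RPS10 (−0.46), RPS19BP1 (−0.43) and RPS9 (−0.43) were lowest. Against IP-like cells, RPL3L (−0.79), RPL21 (−0.52) and RPS9 (−0.50) were among the lowest, and RPL10L (0.39), RPL36AL (0.37), RPL17-C18orf32 (0.31) and RPL37 (0.23) followed RPL34. The medians of the members were −0.07 and −0.13, beside 0.04 and 0.08 over all genes.

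Other genes were taken from lists of translation factors, ribosome biogenesis factors and mitochondrial ribosomal proteins. The genes counted as translation factors are those on the first list, which also holds NAP1L1, a nucleosome assembly protein. In nuclei, 11 of 14 translation factors tested were lower (median log2 fold change −2.42), 12 of 26 biogenesis factors (−1.52) and 40 of 61 mitochondrial ribosomal proteins (−2.25), and 0 of any list were higher. Over all genes, 16.8% were called lower and 5.86% higher, with a median of −0.24. EEF1D, a subunit of the exchange factor of elongation factor 1, had the largest change of the translation factors in nuclei (−6.63 ± 0.771 SE, edgeR adjusted p = 0.0018), then TPT1 (−5.40) and EIF3F (−3.96). In E70 and Adult nuclei, EEF1D had only 4 and 2 UMIs and EIF3F 2 and 4, where TPT1 had 110 and 53. DKC1, the pseudouridine synthase of box H/ACA particles, was at −3.73 (7 UMIs in each nuclei library) and BOP1 at −3.20 (1 and 5 UMIs). RRS1, MRPL12, MRPL41 and MRPS34 were also called lower, and no fold change is given because they had 0 UMIs in both nuclei libraries. Between E70 and E60, 0 genes of these lists were called, and their medians were −0.24, −0.14 and −0.81. On the list of translation factors, EEF1D (−1.52), EEF1A2 (0.99) and NAP1L1 (−0.90) differed most there. Among biogenesis factors NOP10 (1.87), BOP1 (−1.31) and EMG1 (−1.08) did, and among mitochondrial ribosomal proteins MRPL28 (2.56), MRPS26 (−2.48) and MRPS34 (−2.03).

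Between classes, 3 of 14 genes on the list of translation factors were higher and 2 lower in microglia-like than in astrocyte and radial glia-like cells. The largest were TPT1 (0.98), EEF1B2 (0.76) and NAP1L1 (0.65), the nucleosome assembly protein on that list. Of the biogenesis factors, 5 of 25 were higher and 0 lower, led by RRP1B (1.17), BOP1 (0.82) and NOP10 (0.77). Of the mitochondrial ribosomal proteins, 7 of 61 were higher, with MRPS34 (1.45), MRPL52 (0.82) and MRPS18B (0.81) in front, and 16 were lower. Over all genes in this contrast, 22.3% were called higher and 23.9% lower. In excitatory-like against astrocyte and radial glia-like cells, EEF1D was lower (−3.99 ± 0.320 SE, edgeR adjusted p = 4.0e-13) and EEF1A2, the elongation factor isoform of mature neurons and muscle, was higher (2.16 ± 0.447 SE, edgeR adjusted p = 0.00016), with EIF4A2 at 0.82. There, 2 of 14 translation factors were higher and 2 lower, 7 of 25 biogenesis factors higher, among them WDR12 (1.12), GNL3 (0.76) and RPF2 (0.75), and 3 of 61 mitochondrial ribosomal proteins higher and 6 lower, with MRPL36 (−1.23), MRPL40 (−1.11) and MRPS30 (0.88). Over all genes, 13.6% were higher and 15.2% lower there, and 8.28% and 7.77% in excitatory-like against IP-like cells. In excitatory-like against IP-like cells, EEF1D (−3.36), EEF1A2 (1.48) and EIF3F (−0.87) were called. NOP56 was the 1 biogenesis factor called there (−0.66), while RRS1 (0.78) and FBL (−0.55) were not. Among mitochondrial ribosomal proteins, MRPL40 (−1.0) and MRPS25 (−0.88) were called lower and 2 others higher, and MRPL57 (−0.84) was not called.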

How the data were processed

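Gene by cell count tables of 10 libraries were used. Per the labels and the study's methods, the authors captured 3′ ends with droplet chemistry, mapped reads to Sscrofa11.1 with intronic reads included, and deposited UMI counts per gene and cell from Cell Ranger (2.20 in the submitters' processing notes), not normalized. Members and gene lists were chosen with earlier results of these data known. The named members were the 5 most abundant, the 5 highest and 5 lowest in each contrast, those outside the core list and those kept out by the filter on low counts.

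Libraries were aligned by mutual nearest neighbours (20 neighbours) on 50 components of 3000 variable genes without members, markers, globin or mitochondrial genes. Cells were then clustered (30 neighbours, resolution 1.6) and classes named from fixed markers. Clusters within each library without this alignment were an alternative for the class shares. The 1077 cells scored as doublets were left out as an alternative for the shares. UMIs were summed per library, without erythroid-like and vascular-like cells, or per library and class with at least 20 cells, and tested with edgeR 4.0.16 (quasi-likelihood, TMM, Benjamini-Hochberg over all genes tested). DESeq2 1.42.0 was an alternative. Shares were compared with exact permutation tests over libraries, which went through every arrangement, in numpy 2.4.6. The whole cell libraries of E60, and those of E70, came from different brains going by the study's counts, and p-values measure the spread between these libraries. On simulated data, the E70 to E60 fit recovered 49.0% of 4-fold changes, the nuclei fit 18.2%, the fit of its difference between stages 0% (and 30% of 64-fold changes) and the microglia-like to astrocyte and radial glia-like fit 89.8%. UMI totals limit precision, and intervals cover counting error only. Values of some members and a start-site sequence are not reported here.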

Additional observations from a re-analysis of the deposited data

How the results depend on the processing

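The limits below concern counts of calls, and also the direction of the E70 to E60 difference in proportion and of some members. The proportion of members in E70 minus E60 whole cells ranged from −2.23 to −0.586 points when 1 library was left out, and reversed to 0.495 without E70_1 and E70_2 and to 0.203 within the pool of E60_3 and E70_3. Within classes it ranged from −3.83 to −2.21 points (IP-like), −2.28 to −0.571 (interneuron-like), −1.33 to −0.683 (erythroid-like) and −1.22 to 0.0433 (astrocyte and radial glia-like, reversed without E70_1). Nuclei minus whole cells ranged from −3.65 to −2.83 points. With 1 library left out, the genes called between E70 and E60 ran from 0 to 5552, with 0 to 3 members higher and 0 to 2 lower. Between nuclei and whole cells they ran from 191 (without E70_nc) to 5227, with 2 to 35 members lower, and were 1832 without Adult_1 and 1839 without Adult_nc. For microglia-like against astrocyte and radial glia-like cells they ran from 6067 to 7249, with 5 to 14 members higher. For excitatory-like cells they ran from 2986 to 4953 against astrocyte and radial glia-like cells, with 0 to 2 members lower, and from 1488 to 2912 against IP-like cells. DESeq2 called 2535 genes between E70 and E60 with 2 members higher, and 59 for the difference of the nuclei effect with 4 members higher and 3 lower. Among classes it called 18 members higher in microglia-like cells, 2 higher and 3 lower in excitatory-like against astrocyte and radial glia-like cells, and 3 lower against IP-like cells. Over all 15309 genes it called 3774 higher and 3651 lower, 2118 higher and 2835 lower, and 1243 higher and 1566 lower in these contrasts. Scaling by library size only gave 6 members higher in microglia-like cells and moved the median log2 fold change of all genes from −0.02 to 0.13 (E70 minus E60), from −0.24 to −0.03 (nuclei) and from −0.06 to −0.24 (microglia-like). E70 nuclei against E70 whole cells alone gave 1839 genes. Without E70_1 and E70_2, an alternative chosen after seeing the data, 2326 genes were called in nuclei, 17 members were higher in microglia-like cells and 1 was higher in excitatory-like against astrocyte and radial glia-like cells. Single members that reversed were RPL3L in nuclei (0.023 with library size only, 0.43 without E70_1 and E70_2, and −0.46 to 0.18 with 1 library left out, above 0 without E70_2 or E70_nc), RPS23 between E70 and E60 (−0.50 without E60_1 and E60_2, and −0.023 without E70_3 to 1.07 without E60_3) and RPL7 in microglia-like cells (0.054 without E70_1 and E70_2). The cause of these changes was not tested. A replicate block on the shared library numbers gave 0 genes called between E70 and E60 and −1.32 points for the proportion, and the same-numbered libraries deviated together with r of −0.143, 0.0393 and −0.135, so that the numbers were not taken to pair the libraries, although E60_1 with E70_1 and E60_3 with E70_3 also shared a sequencing pool. Of 915 alternative values for single members or pairs of classes, 870 kept their direction and side of the threshold.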
